A study of Mus musculus with 6 samples.

Results

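T cell and natural killer (NK) cell transcripts were followed in whole mouse kidneys, from 41 genes named by symbol: the antigen receptor and its CD3 chains, the coreceptors CD4 and CD8, receptor-proximal kinases and adaptors, costimulatory and inhibitory receptors, cytokine receptors, transcription factors, NK receptors and cytotoxic effectors. All 41 were found among the 55401 gene IDs of the deposited count table. The choice did not use measured values, though it was made with earlier results of the same libraries known. The 6 libraries, made from poly(A) RNA with strand marking, are labelled as 3 control kidneys and 3 kidneys with diabetic kidney disease (DKD), in a series whose title concerns SETDB2, SMAD3 and podocytes. The labels give tissue, group and replicate number. Strain, sex, age, inducing agent and time are not named. Nor is it written that every library came from its own animal, so a p-value here reflects variation among libraries, some of which could be technical.

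T cells recognise antigen through a receptor whose alpha and beta chains are joined to the CD3 chains, which carry the signal inwards. CD4 and CD8 bind the major histocompatibility molecules and bring in the kinase LCK, after which ZAP70 and LAT pass the signal on. CD4 cells divide into helper cells and FOXP3-bearing regulatory cells, CD8 cells kill with granzymes and perforin, and NK cells kill with the same effectors but sense targets through receptors such as NKp46 (Ncr1) and NKG2D (Klrk1). A healthy kidney holds few lymphocytes, spread through the interstitium, and T cells are known to gather there in diabetic and other chronic kidney disease. In bulk tissue, more cells of a type and more RNA per cell cannot be told apart.

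The T and NK transcripts were scarce, and their levels split the DKD group. DKD replicate 1 stood apart from the other libraries: 16 hepatocyte genes summed to 4663 CPM there and to 571 to 723 CPM elsewhere, with Alb, albumin, at 2321 CPM beside 7.20 to 14.7 CPM, and Ahsg and Mup3 had no counts in any other library. Results are given with and without it. Summed over the 41 genes, the level was 18.9, 24.9 and 23.6 CPM (counts scaled by library size and TMM factors) in the controls. The DKD kidneys had 19.9, 62.8 and 81.8 CPM, in the order of their replicate numbers. DKD replicate 1 lay inside the control range, and DKD replicates 2 and 3 lay far above it. CPM of DKD replicates 2 and 3 both exceeded every control for 35 of the 41 genes, against 22% of all genes with any count, and were both below every control for 0 (17.3%). Setting DKD replicates 2 and 3 apart follows the split seen in these same levels. Such counts, here and below, describe the libraries and are no test. DKD replicate 1 was above every control for 7 of the 41 genes (25.4% of all genes with any count), below every control for 14 (19.8%) and inside the control range for 20. Single values rest on few reads: the 41 genes had 0 to 208 counts in control libraries and at most 820 in DKD libraries, out of 64816622 to 77417638 counts per library. A gene without counts could still be present at 3 counts, which is 0.0353 to 0.0505 CPM here, a limit that covers counting error only. This limit takes each count as a separate fragment, and is higher if a fragment gives more than a single count.

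**Figure D1:**
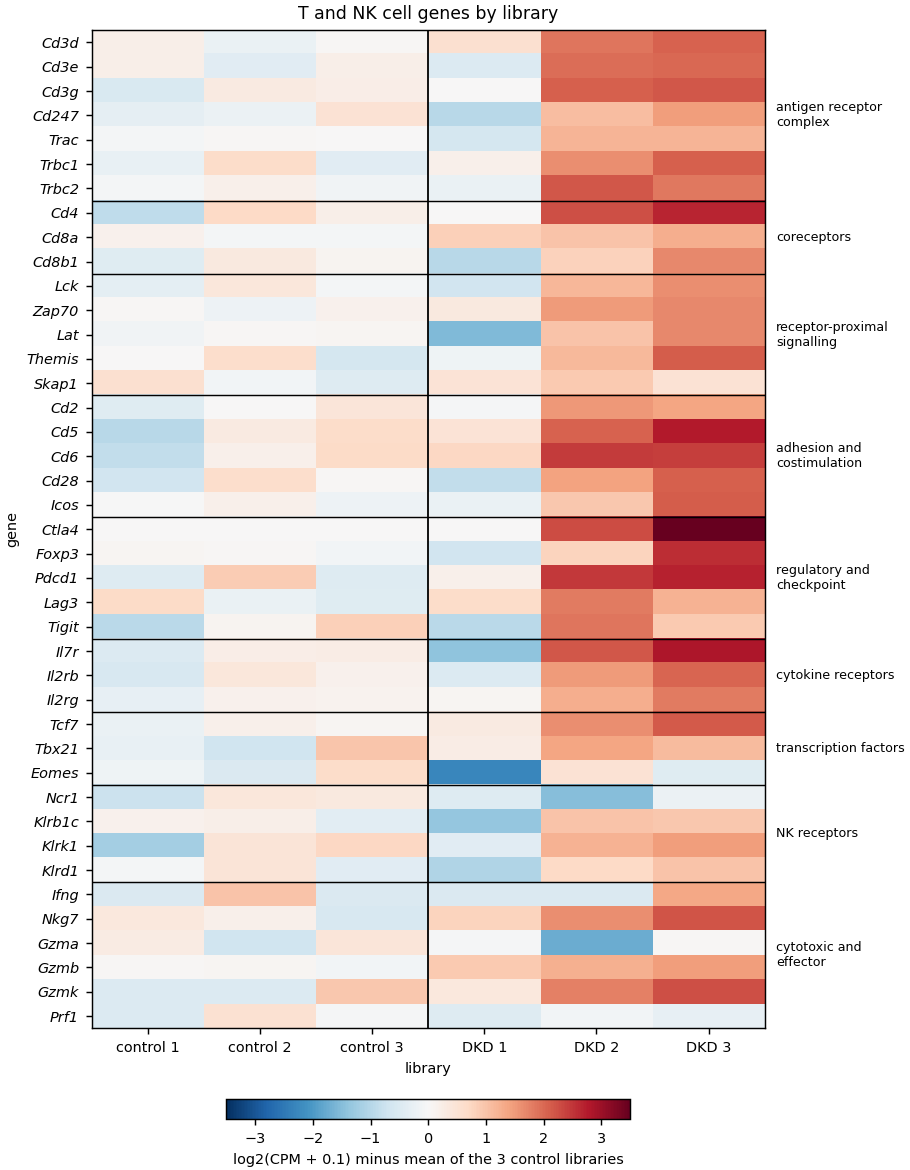
Level of each of the 41 genes (rows, grouped by role) in each library (columns), as log2(CPM + 0.1) minus the mean of the 3 control libraries; red is above and blue below that mean. DKD replicates 2 and 3 are red in nearly all rows above the NK receptors, with 35 of 41 genes above every control (22% of all genes with any count). DKD replicate 1 resembles the controls and is below all of them for 14 genes (19.8%).

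Which of these transcripts differ between DKD and control kidneys was tested with edgeR's quasi-likelihood test over all genes. It passed 0 of the 39 T and NK genes that met the low count filter at an adjusted p of 0.05, and 0% of the 19197 genes tested in either direction. The smallest adjusted p among the T and NK genes was 0.115, for Cd8a. At an unadjusted p under 0.05 there were 15 higher and 0 lower, where 12.2% of all genes were higher and 7.05% lower. DESeq2 called 6 higher, where 6.22% of all genes were higher and 2.89% lower. Limma-voom with sample quality weights called 11 higher, where 9.93% of all genes were higher and 7.78% lower. The 11 include Gzmb, which reached the filter's count in DKD libraries only. Without DKD replicate 1, edgeR passed 21, all higher in DKD, where 9.67% of all genes were higher and 5.84% lower. Of those 21, 1 was Ctla4, which had no counts in the controls and met the filter there through DKD kidneys alone. The other 20 were among the 39 tested with all libraries. Of the 21, 9 were also called by weighted limma-voom and 6 by DESeq2 as well. Weighted limma-voom gave DKD replicate 1 the lowest weight, 0.302, and control replicate 1 the next lowest, 0.502. Leaving out any other single library left 0 past the threshold, where 0.0298% of all genes were higher and 0.00497% lower without control replicate 1, 0.0051% were lower without DKD replicate 3, and 0% passed otherwise. The 2 genes that failed the filter were Ctla4 and Ifng, and 9 of the 39 reached the filter's count in more DKD than control libraries, so they could pass it through the group in which they were high. With no filter all 41 could be fitted and 0 passed (0.01% of all genes higher, 0.00334% lower), with a median log2 difference of 1.43, beside 0.09 over the 29930 genes with any count, and 37 were fitted higher, beside 56% of those genes. In what follows, each difference is log2 DKD minus control ± its SE.

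**Figure D2:**
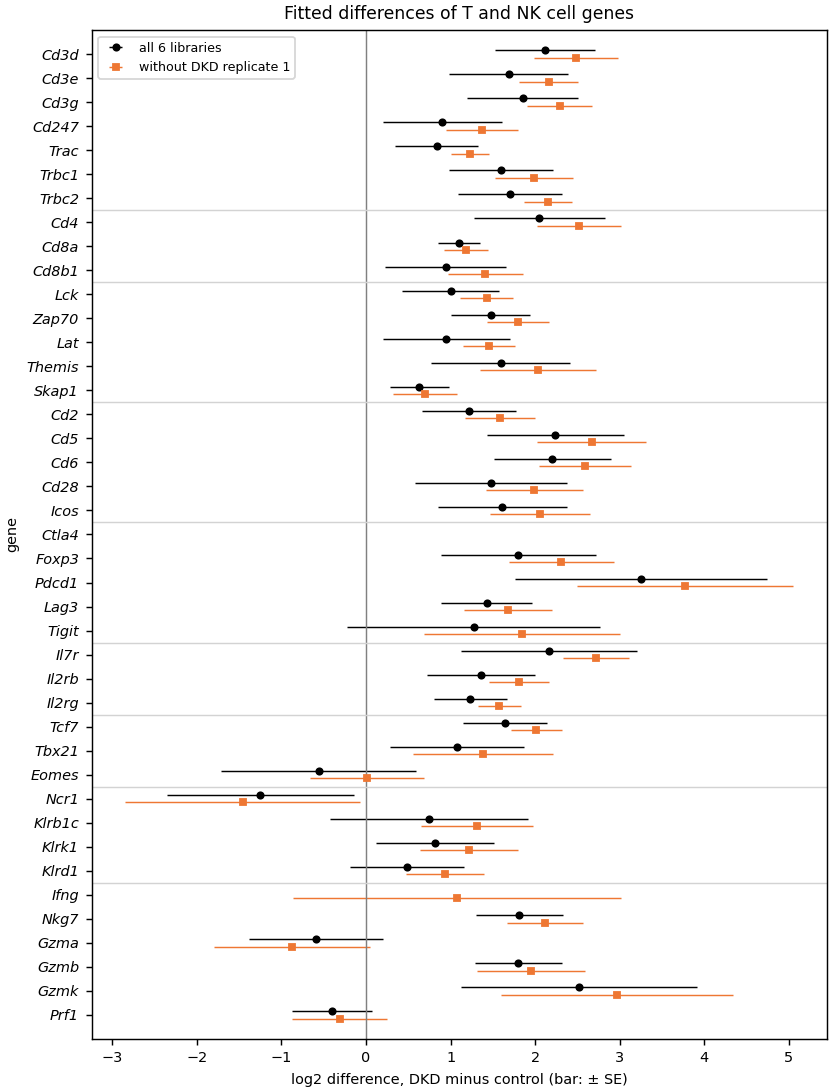
Fitted log2 difference of each gene, DKD minus control, with its SE as a bar, from all 6 libraries (black circles) and without DKD replicate 1 (orange squares); Ctla4, which had no counts in controls, is not drawn. Differences are larger and bars shorter without DKD replicate 1 for most genes, whereas Ncr1, Gzma and Prf1 lie below 0 in both fits.

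Among the 7 antigen receptor genes, all were above every control in DKD replicates 2 and 3, beside 22% of all genes with any count. Of the 7, 6 passed higher without DKD replicate 1, where 9.67% of all genes were higher and 5.84% lower. Cd3e (ENSMUSG00000032093), which encodes the CD3 epsilon chain, had 0.555, 0.333 and 0.564 CPM in control and 0.315, 2.14 and 2.23 CPM in DKD replicates 1 to 3. DKD replicate 1 was below every control, the other DKD kidneys were about equal, the groups overlapped, and the difference of 1.69 ± 0.70 on the log2 scale did not pass (adjusted p = 0.252, edgeR). Without DKD replicate 1 it was 2.16 ± 0.35 on the log2 scale (adjusted p = 0.0104, edgeR). Cd3g, the gamma chain, had 0.269, 0.561 and 0.522 CPM in control and 0.433, 2.18 and 2.29 CPM in DKD replicates 1 to 3, with DKD replicate 1 inside the controls. Cd3d, the delta chain, had 0.202, 0.121 and 0.169 CPM in control and 0.289, 0.857 and 1.00 CPM in DKD replicates 1 to 3. It was the only CD3 gene with every DKD kidney above every control, and it differed by 2.12 ± 0.60 on the log2 scale (adjusted p = 0.150, edgeR). Genes whose groups did not overlap in this direction were 7 of the 41, beside 10.1% of all genes with any count, and 0 did so in the other direction (9.15%). Cd247, the zeta chain that carries most of the signalling motifs, had 0.387, 0.424 and 0.762 CPM in control and 0.210, 1.17 and 1.57 CPM in DKD replicates 1 to 3. Its difference was 1.37 ± 0.43 on the log2 scale without DKD replicate 1 and did not pass there either (adjusted p = 0.0736, edgeR).

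Trac, the constant region of the receptor alpha chain, had 1.53, 1.65 and 1.61 CPM in control and 0.998, 3.75 and 3.79 CPM in DKD replicates 1 to 3. The 3 controls lay close together, DKD replicate 1 was below them and the other DKD kidneys were close to each other. Its difference was 0.83 ± 0.49 on the log2 scale with all libraries (adjusted p = 0.382, edgeR) and 1.23 ± 0.22 on the log2 scale without DKD replicate 1 (adjusted p = 0.0141, edgeR). The beta chain constant regions Trbc1 and Trbc2 are near-identical copies, so reads may be split between them. Trbc1 had 0.353, 0.742 and 0.310 CPM in control and 0.512, 1.57 and 2.18 CPM in DKD replicates 1 to 3, and Trbc2 0.673, 0.818 and 0.635 CPM in control and 0.591, 3.53 and 2.82 CPM in DKD replicates 1 to 3. Both separated DKD replicates 2 and 3 from the other 4 libraries, and without DKD replicate 1 Trbc2 had the smallest adjusted p of all 41 genes (0.00536, edgeR).

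The variable segments, which each T cell clone recombines, are separate genes in the table and were summed as raw counts, a look chosen after the data were seen. Of 35 beta variable segments 19 had any count. They held 17, 17 and 4 counts in the control kidneys, and 4, 101 and 148 counts in the DKD kidneys, each in the order of replicate numbers. The counts of DKD replicates 2 and 3 were spread over 13 and 16 segments, and those of the other libraries over at most 3. Alpha and delta variable segments held 17, 32 and 28 counts in control and 25, 71 and 68 in DKD kidneys, from 16 and 17 segments in DKD replicates 2 and 3 and from 3 to 9 elsewhere. More segments were thus seen where more receptor reads were seen, and DKD replicate 1 was not above the highest control in either total. The segments were not tested, since most had no counts in most libraries.

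Because the CD3 genes shared a pattern across libraries, the stretch before the start sites of the 41 genes was read. Promoter sequence was found for 28 of the 41 genes in RefSeq (GRCm38.p6, another build than the GRCm39 of the counts). As a check of the start sites, the bases after the start were looked for in annotated transcripts of the gene. They were found at no listed start of Eomes, Gzmb, Gzmk, Il7r, Prf1 and Tigit, which are kept in the shares below. Over the 250 bases before the start, on both strands, the ETS-family motif AGGAAGT stood in 8 of the 28 genes (28.6%), beside 7.80% of 27025 genes with such a sequence. The 8 were Cd247, Cd3d, Cd3e, Cd5, Il7r, Lck, Prf1 and Tbx21. Cd3g thus lacked the motif, and Prf1, which was fitted lower in DKD, had it. The shorter ETS core GGAAG, which lies inside AGGAAGT, stood in 75.0% of the 28 and 63.6% of all. The RUNX motif TGTGGT stood in 35.7%, beside 14.2% of all. For the TCF motif CTTTGA the shares were 10.7% and 14.1%, for the GATA motif AGATAA 7.14% and 10.3%, and for the NFAT motif TGGAAA 21.4% and 18.7%. A match is a description of letters, not of binding. The promoters of Cd3d, Cd3e and Cd5 are shown for the ETS letters, and those of Gzma and Nkg7, cytotoxic genes with unlike patterns across the libraries, for the RUNX letters. Each runs 5′ to 3′ up to the base before the start, with the AGGAAGT and the TGTGGT motif, or the reverse complement of either, in capitals.
Cd3d (chr9:44981536-44981785, plus strand): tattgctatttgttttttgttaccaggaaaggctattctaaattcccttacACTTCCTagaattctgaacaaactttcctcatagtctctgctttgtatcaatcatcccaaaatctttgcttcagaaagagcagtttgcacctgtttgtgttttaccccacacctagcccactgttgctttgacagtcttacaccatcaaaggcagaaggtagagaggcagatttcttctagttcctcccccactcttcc
Cd3e (chr9:45009612-45009861, minus strand): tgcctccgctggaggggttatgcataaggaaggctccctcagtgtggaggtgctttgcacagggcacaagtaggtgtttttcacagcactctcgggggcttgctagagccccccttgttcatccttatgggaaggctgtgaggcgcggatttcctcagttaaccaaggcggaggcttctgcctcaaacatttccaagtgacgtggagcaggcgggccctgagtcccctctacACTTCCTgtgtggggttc
Cd5 (chr19:10738975-10739224, minus strand): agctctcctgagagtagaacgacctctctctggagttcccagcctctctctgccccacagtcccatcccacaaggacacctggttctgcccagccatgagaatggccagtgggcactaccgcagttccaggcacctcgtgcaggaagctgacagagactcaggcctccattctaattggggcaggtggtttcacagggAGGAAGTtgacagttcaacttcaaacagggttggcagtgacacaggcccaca
Gzma (chr13:113100982-113101231, minus strand): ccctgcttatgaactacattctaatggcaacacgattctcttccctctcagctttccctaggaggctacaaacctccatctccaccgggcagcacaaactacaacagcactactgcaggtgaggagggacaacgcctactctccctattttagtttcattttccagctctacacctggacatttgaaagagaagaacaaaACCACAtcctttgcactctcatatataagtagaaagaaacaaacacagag
Nkg7 (chr7:43436888-43437137, plus strand): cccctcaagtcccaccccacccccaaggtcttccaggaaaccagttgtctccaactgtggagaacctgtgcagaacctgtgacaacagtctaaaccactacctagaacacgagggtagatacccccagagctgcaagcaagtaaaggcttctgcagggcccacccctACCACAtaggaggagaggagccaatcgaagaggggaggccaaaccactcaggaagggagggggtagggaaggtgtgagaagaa
The capitals begin 199 bases before the start in Cd3d, 18 in Cd3e, 52 in Cd5, 50 in Gzma and 83 in Nkg7. Cd3g, Cd3d and Cd3e follow each other on chromosome 9 with no other protein-coding gene between them, as do Cd28, Ctla4 and Icos on chromosome 1 and the pairs Cd8b1 and Cd8a, Cd4 and Lag3, and Klrd1 and Klrk1 on chromosome 6. Cd5 and Cd6 are likewise neighbours on chromosome 19, and Gzma and Gzmk on chromosome 13.

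The coreceptors did not follow a single course. Cd4, carried by helper and regulatory T cells and at lower level by some myeloid cells, had 0.236, 0.894 and 0.607 CPM in control and 0.525, 2.87 and 3.83 CPM in DKD replicates 1 to 3. The values of DKD replicates 2 and 3 were several times the highest control, and DKD replicate 1 was inside the controls. The difference was 2.05 ± 0.78 on the log2 scale with all libraries (adjusted p = 0.221, edgeR) and 2.52 ± 0.50 on the log2 scale without DKD replicate 1 (adjusted p = 0.0188, edgeR). Cd8a had 1.38, 1.17 and 1.17 CPM in control and 2.30, 2.54 and 3.12 CPM in DKD replicates 1 to 3. Here DKD replicate 1 stood with the other DKD kidneys, the groups did not overlap, and the difference of 1.10 ± 0.25 on the log2 scale had the smallest SE of the 41 genes. Cd8b1, whose product pairs with that of Cd8a on conventional CD8 T cells, had 0.387, 0.727 and 0.607 CPM in control and 0.236, 1.05 and 2.03 CPM in DKD replicates 1 to 3. In DKD replicate 1 it was below every control, where Cd8a was above every control. Cd8a without Cd8b1 is also carried by a class of dendritic cell. Xcr1 and Clec9a, markers of that class, were at 0.144 and 2.05 CPM in DKD replicate 1, beside 0.185, 0.591 and 1.04 and 2.34, 2.02 and 2.78 CPM in the controls. Which cells carried Cd8a in DKD replicate 1 was not tested.

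**Figure D3:**
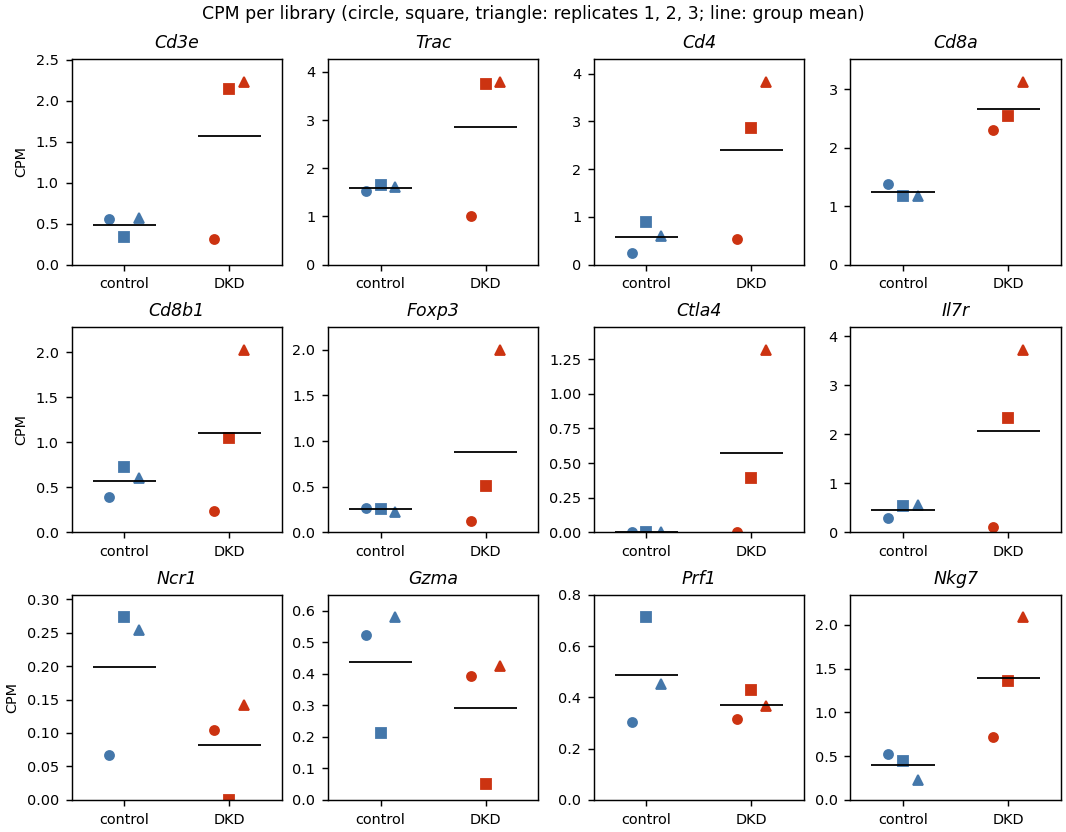
CPM of 12 genes in each library, control in blue and DKD in red, with circles, squares and triangles for replicates 1, 2 and 3 and a line at each group mean; each vertical axis starts at 0 and has its own scale. For Cd3e, Trac, Cd4 and Il7r the DKD circle (replicate 1) lies among or below the controls and the other DKD symbols above them, for Cd8a and Nkg7 all 3 DKD symbols lie above, and for Ncr1, Gzma and Prf1 the groups overlap.

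Among the genes that carry the receptor signal, Zap70, the kinase recruited to the phosphorylated CD3 chains, had 0.404, 0.333 and 0.451 CPM in control and 0.525, 1.30 and 1.48 CPM in DKD replicates 1 to 3. Every DKD kidney was above every control, with a difference of 1.47 ± 0.47 on the log2 scale (adjusted p = 0.175, edgeR). Lck, the kinase bound to CD4 and CD8, had 1.03, 1.79 and 1.26 CPM in control and 0.801, 3.06 and 4.28 CPM in DKD replicates 1 to 3, and Lat, the adaptor on which signalling complexes assemble, 0.942, 1.08 and 1.10 CPM in control and 0.289, 2.17 and 3.56 CPM in DKD replicates 1 to 3. Both were lowest in DKD replicate 1 of all 6 libraries and highest in DKD replicate 3. Lck differed by 1.43 ± 0.32 on the log2 scale and Lat by 1.45 ± 0.31 on the log2 scale without DKD replicate 1, and both passed there (adjusted p = 0.0272 and 0.0233, edgeR). Themis, needed for thymic selection, had 0.185, 0.333 and 0.0846 CPM in control and 0.158, 0.519 and 1.14 CPM in DKD replicates 1 to 3 and did not pass in either fit. Skap1, an adaptor of integrin activation, had 1.88, 1.17 and 0.889 CPM in control and 1.80, 2.47 and 1.83 CPM in DKD replicates 1 to 3. It was the only gene of this group in which DKD replicate 3 lay below a control, and its difference of 0.63 ± 0.35 on the log2 scale was the smallest of the group.

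Surface receptors of adhesion and costimulation were higher in DKD replicates 2 and 3 than in every control for all 5 genes, beside 22% of all genes with any count. Cd6, which binds the adhesion molecule ALCAM, had 0.118, 0.348 and 0.522 CPM in control and 0.552, 2.04 and 2.00 CPM in DKD replicates 1 to 3. DKD replicate 1 was just above the highest control, so the groups did not overlap, and the difference was 2.20 ± 0.69 on the log2 scale (adjusted p = 0.170, edgeR). Cd5, a receptor that dampens antigen receptor signals, had 0.0673, 0.303 and 0.409 CPM in control and 0.355, 1.26 and 2.11 CPM in DKD replicates 1 to 3, with DKD replicate 1 inside the controls. Its difference without DKD replicate 1 was 2.67 ± 0.65 on the log2 scale (adjusted p = 0.0352, edgeR). Cd2, a partner of CD48, had 0.286, 0.424 and 0.592 CPM in control and 0.407, 1.38 and 1.26 CPM in DKD replicates 1 to 3. Cd28, the main costimulatory receptor, had 0.135, 0.470 and 0.282 CPM in control and 0.105, 0.882 and 1.50 CPM in DKD replicates 1 to 3, and Icos, which is induced on activated T cells, 0.185, 0.227 and 0.155 CPM in control and 0.144, 0.454 and 1.14 CPM in DKD replicates 1 to 3. For these the lowest value of all 6 libraries was in DKD replicate 1 and the highest in DKD replicate 3. Neither passed without DKD replicate 1 (adjusted p = 0.0587 for Cd28 and 0.0576 for Icos, edgeR).

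Of the 5 regulatory and checkpoint genes, all were above every control in DKD replicates 2 and 3, beside 22% of all genes with any count. Ctla4, Pdcd1 and Tigit had control libraries without counts. Ctla4, an inhibitory receptor of regulatory and activated T cells, had no counts in any control or in DKD replicate 1, and 0.389 and 1.32 CPM in DKD replicates 2 and 3. Against the limit of 3 counts per control library, the DKD mean was at least 12.4-fold higher if each count is a separate fragment. That bound is lower if a fragment gives more than a single count, and it rests on 2 kidneys. Ctla4 failed the filter with all libraries and met it without DKD replicate 1 through the DKD kidneys alone, so no p is given for it. Foxp3, the transcription factor that defines regulatory T cells, had 0.269, 0.258 and 0.226 CPM in control and 0.118, 0.506 and 2.00 CPM in DKD replicates 1 to 3. The controls lay close together, DKD replicate 1 was below them, and DKD replicate 3 was several times as high as DKD replicate 2. Its difference was 1.80 ± 0.92 on the log2 scale with all libraries (adjusted p = 0.326, edgeR) and 2.31 ± 0.62 on the log2 scale without DKD replicate 1 (adjusted p = 0.0469, edgeR). Pdcd1, which encodes the inhibitory receptor PD-1, had 0, 0.152 and 0 CPM in control and 0.0525, 0.662 and 0.778 CPM in DKD replicates 1 to 3, and Tigit, another inhibitory receptor, 0, 0.106 and 0.240 CPM in control and 0, 0.597 and 0.259 CPM in DKD replicates 1 to 3. Both had libraries without counts and passed in no fit run, although DKD replicates 2 and 3 were above every control. Lag3, an inhibitory receptor of activated T cells and NK cells, had 0.623, 0.288 and 0.240 CPM in control and 0.617, 1.51 and 0.966 CPM in DKD replicates 1 to 3. Unlike Foxp3, it was higher in DKD replicate 2 than in DKD replicate 3, and DKD replicate 1 lay at the level of control replicate 1. Lag3 was called by weighted limma-voom (adjusted p = 0.0299) and not by edgeR without DKD replicate 1 (adjusted p = 0.0733).

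All 3 cytokine receptor genes passed higher without DKD replicate 1, where 9.67% of all genes were higher and 5.84% lower. Il7r, the receptor chain on which naive and memory T cells depend for survival, had 0.286, 0.530 and 0.550 CPM in control and 0.105, 2.34 and 3.72 CPM in DKD replicates 1 to 3. DKD replicate 1 held less than any control and DKD replicate 3 several times the highest, the groups overlapped, and the all-library difference of 2.17 ± 1.04 on the log2 scale did not pass (adjusted p = 0.307, edgeR), while that without DKD replicate 1, 2.72 ± 0.39 on the log2 scale, did (adjusted p = 0.00728, edgeR). Il2rb, the receptor chain shared by interleukin 2 and 15, had 0.808, 1.65 and 1.38 CPM in control and 0.854, 3.62 and 5.41 CPM in DKD replicates 1 to 3. Il2rg, the chain common to several interleukin receptors and made by most leukocytes, had 2.15, 3.00 and 2.93 CPM in control and 2.82, 6.54 and 9.66 CPM in DKD replicates 1 to 3. It differed by 1.23 ± 0.43 on the log2 scale (adjusted p = 0.196, edgeR). For these receptors DKD replicate 3 was above DKD replicate 2, and DKD replicate 2 above every control.

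The 3 transcription factors parted. Tcf7, which keeps T cells in a naive or memory-like state, had 0.673, 0.924 and 0.846 CPM in control and 1.02, 2.69 and 3.95 CPM in DKD replicates 1 to 3. All DKD kidneys were above all controls, DKD replicate 1 only narrowly, with a difference of 1.65 ± 0.49 on the log2 scale (adjusted p = 0.162, edgeR), and the gene was called by DESeq2 (adjusted p = 0.0258) and by weighted limma-voom (adjusted p = 0.0299). Tbx21, the T-bet factor of type 1 helper, CD8 and NK cells, had 0.118, 0.0606 and 0.409 CPM in control and 0.210, 0.584 and 0.460 CPM in DKD replicates 1 to 3. Eomes, its relative in NK and memory CD8 cells, had 0.337, 0.242 and 0.663 CPM in control and 0, 0.584 and 0.259 CPM in DKD replicates 1 to 3. Eomes was without counts in DKD replicate 1, the other DKD kidneys lay inside the control range, and the fitted difference was -0.56 ± 1.15 on the log2 scale with all libraries and 0.01 ± 0.67 on the log2 scale without DKD replicate 1. Neither Tbx21 nor Eomes passed in any fit run.

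Of the 4 NK receptor genes 3 were above every control in DKD replicates 2 and 3, beside 22% of all genes with any count, and none passed the test. Ncr1, the NKp46 receptor and the most NK-restricted of these genes, had 0.0673, 0.273 and 0.254 CPM in control and 0.105, 0 and 0.141 CPM in DKD replicates 1 to 3. DKD replicate 2, which was high for nearly all T cell genes, had no counts, and the fitted difference was -1.25 ± 1.11 on the log2 scale (adjusted p = 0.563, edgeR). Klrb1c, which encodes the NK1.1 antigen in strains that carry it, had 0.185, 0.197 and 0.0987 CPM in control and 0, 0.415 and 0.389 CPM in DKD replicates 1 to 3. Klrd1, the CD94 chain, had 0.438, 0.667 and 0.324 CPM in control and 0.171, 0.805 and 1.03 CPM in DKD replicates 1 to 3. Klrk1, the NKG2D receptor, which CD8 T cells also carry, had 0.252, 1.00 and 1.24 CPM in control and 0.512, 1.76 and 2.13 CPM in DKD replicates 1 to 3. These last 3 genes were above every control in DKD replicates 2 and 3, by a small margin for Klrd1, and 0 of the 4 passed in any fit run. With edgeR and all libraries, 0 of the 4 had an unadjusted p under 0.05. Whether NK and T cell genes differed from each other was not tested here beyond the ratios of Ncr1 and Gzma to Cd3e.

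Cytotoxic effectors showed unlike patterns. Nkg7, a granule protein of cytotoxic T cells and NK cells, had 0.522, 0.439 and 0.226 CPM in control and 0.722, 1.36 and 2.09 CPM in DKD replicates 1 to 3. Gzmb, granzyme B, had 0.118, 0.121 and 0.0987 CPM in control and 0.302, 0.402 and 0.483 CPM in DKD replicates 1 to 3. For both, every DKD kidney was above every control, with differences of 1.81 ± 0.52 on the log2 scale (adjusted p = 0.152 for Nkg7, edgeR) and 1.80 ± 0.51 on the log2 scale. Gzmb reached the filter's count in DKD libraries only, so no p is given for it. Gzmk, a granzyme of memory-like CD8 T cells, had 0, 0 and 0.169 CPM in control and 0.0788, 0.376 and 0.566 CPM in DKD replicates 1 to 3, with no counts in control replicates 1 and 2. In contrast Gzma, granzyme A, had 0.522, 0.212 and 0.578 CPM in control and 0.394, 0.0519 and 0.424 CPM in DKD replicates 1 to 3, and Prf1, perforin, 0.303, 0.712 and 0.451 CPM in control and 0.315, 0.428 and 0.365 CPM in DKD replicates 1 to 3. Their groups overlapped, the fitted differences were -0.59 ± 0.79 on the log2 scale and -0.40 ± 0.47 on the log2 scale, and neither passed in any fit run. Ifng, the main cytokine of type 1 T cells and NK cells, had counts in only 2 libraries, at 0.182 CPM in control replicate 2 and 0.259 CPM in DKD replicate 3.

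To compare CD4, CD8, regulatory and NK markers within a library, 5 log2 ratios of (CPM + 0.1) were formed and tested with an exact permutation test, two-sided, whose smallest possible p is 0.1 with 3 libraries per group. The ratio of Cd8a to Cd4 was 2.14, 0.35 and 0.85 in control and 1.94, -0.17 and -0.29 in DKD replicates 1 to 3. The lowest values were those of DKD replicates 2 and 3, and the mean differed by -0.62 (exact p = 0.5, adjusted over the 5 ratios 0.75). Foxp3 to Cd3e was -0.83, -0.28 and -1.03 in control and -0.93, -1.89 and -0.15 in DKD replicates 1 to 3. DKD replicate 2 gave the lowest and DKD replicate 3 the highest ratio of all 6 libraries, with a mean difference of -0.28 (exact p = 0.8, adjusted 0.8). Ncr1 to Cd3e was -1.97, -0.22 and -0.91 in control and -1.02, -4.49 and -3.27 in DKD replicates 1 to 3, a mean difference of -1.89 (exact p = 0.2, adjusted 0.75). For Gzma to Cd3e the values were -0.08, -0.47 and 0.03 in control and 0.25, -3.88 and -2.15 in DKD replicates 1 to 3, a mean difference of -1.75 (exact p = 0.4, adjusted 0.75). Both ratios were lowest in DKD replicates 2 and 3, where Cd3e was high and Ncr1 and Gzma were not. Ncr1 had no counts in DKD replicate 2, so that ratio depends on the added 0.1. Cd3e to Ptprc, the pan-leukocyte antigen CD45, was -3.46, -4.39 and -3.96 in control and -4.00, -3.46 and -3.62 in DKD replicates 1 to 3. Its range in DKD kidneys lay inside that of the controls except for a margin of under 0.01 at the upper end in DKD replicate 2, and the mean difference was 0.24 (exact p = 0.6, adjusted 0.75). With all libraries, none of the 5 exact p-values was at the smallest the design allows. The mean differences without DKD replicate 1 were -1.34 for Cd8a to Cd4, -0.31 for Foxp3 to Cd3e, -2.85 for Ncr1 to Cd3e, -2.84 for Gzma to Cd3e and 0.40 for Cd3e to Ptprc, with exact p-values adjusted over the 5 ratios of 0.333, 0.8, 0.25, 0.25 and 0.375. For Ncr1 to Cd3e and Gzma to Cd3e the unadjusted p was then the smallest that the remaining libraries allow. So few libraries cannot give a small p.

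**Figure D4:**
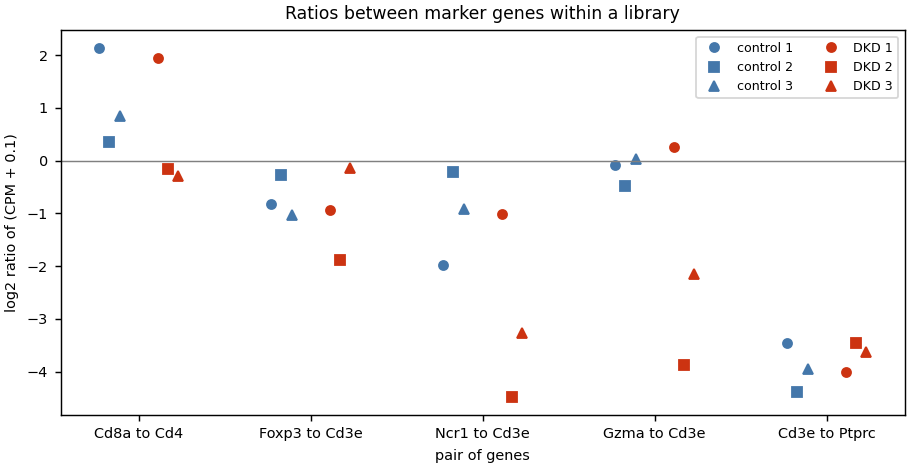
Log2 ratio of (CPM + 0.1) of 2 genes within each library for 5 pairs, control in blue on the left and DKD in red on the right of each pair, with circles, squares and triangles for replicates 1, 2 and 3. The ratios of Ncr1 and of Gzma to Cd3e are lowest in DKD replicates 2 and 3, while DKD replicate 1 lies among the controls in 4 of the 5 pairs and just above them for Gzma to Cd3e.

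Other genes of these pathways were read from further lists, none with a member past the threshold with all libraries in edgeR. Of 24 further genes of antigen receptor signalling, 21 were tested with a median log2 difference of 0.57. At an unadjusted p under 0.05, 6 were higher, beside 12.2% of all genes tested. Without DKD replicate 1, 8 of 24 passed, all higher. In that fit 9.67% of all genes were higher and 5.84% lower, which is the share to set beside each such count below. Nfatc2, a calcium-dependent transcription factor, had 2.39, 3.09 and 3.74 CPM in control and 5.10, 7.05 and 6.35 CPM in DKD replicates 1 to 3, and Fyn, a kinase made in many cell types, 5.62, 6.03 and 7.83 CPM in control and 8.42, 11.4 and 12.3 CPM in DKD replicates 1 to 3. Both were above every control in all DKD kidneys. Of 21 further surface genes, 18 were tested with a median of 0.99, and 8 of 21 passed without DKD replicate 1. Ccr7, the receptor that leads naive and central memory T cells to lymph nodes, had 0.0841, 0.333 and 0.127 CPM in control and 0.131, 1.96 and 1.67 CPM in DKD replicates 1 to 3, and Ly9, of the SLAM family, 0.135, 0.348 and 0.762 CPM in control and 0.499, 2.73 and 3.49 CPM in DKD replicates 1 to 3. Again DKD replicate 1 stayed with the controls. Of 24 further NK and cytotoxic genes only 15 met the filter and 7 had no counts in any control. Their median was 0.58, and 3 of 16 passed without DKD replicate 1: Itga2, an integrin that epithelial cells also make, Ccl5 and Serpinb9. The NK receptor genes of the Klra family had no counts in any control, and Klra1, Klra3 and Klra8 had none in any library. Of 19 lymphocyte transcription factors the median was 0.20, and 5 passed higher without DKD replicate 1: Gata3, Ets1, Ikzf3, Tox and Stat4.

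Chemokines that draw T cells were read beside these genes. Of 17 chemokines and receptors 15 were tested with a median of 0.76. Without DKD replicate 1, 7 passed higher, where 9.67% of all genes were higher and 5.84% lower. Cxcl9, an interferon-induced ligand of CXCR3, had 1.08, 1.35 and 2.44 CPM in control and 4.37, 8.80 and 7.36 CPM in DKD replicates 1 to 3, and Cxcl10, another such ligand, 3.20, 6.52 and 6.98 CPM in control and 7.13, 20.3 and 27.3 CPM in DKD replicates 1 to 3. For both, all DKD kidneys were above all controls, DKD replicate 1 by the smallest margin. Their receptor gene Cxcr3, chosen here after its values were seen, had 0.539, 0.470 and 0.818 CPM in control and 0.0919, 2.92 and 3.08 CPM in DKD replicates 1 to 3. It was lowest of all libraries in DKD replicate 1, where Cxcl9 and Cxcl10 were above the controls. Cxcl11, the third CXCR3 ligand, had 0.656, 1.50 and 1.09 CPM in control and 0.420, 0.506 and 1.08 CPM in DKD replicates 1 to 3. It was below every control in DKD replicates 1 and 2 and did not pass (adjusted p = 0.477, edgeR).

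Markers of other cells moved with the T and NK genes, and their part in the result was not tested. Pan-leukocyte genes (14 listed, 14 tested, 13 fitted higher) summed to 115 to 125 CPM in control kidneys and 109, 233 and 266 CPM in DKD replicates 1 to 3. Of these genes 11 passed without DKD replicate 1, where 9.67% of all genes were higher and 5.84% lower. Over all genes tested with all libraries, 10059 of 19197 were fitted higher. Macrophage and dendritic cell genes (18 of 18 fitted higher) summed to 149 to 179 CPM in control kidneys and 158, 289.5 and 357 CPM in DKD replicates 1 to 3. B and plasma cell genes (11 of 14 tested fitted higher) summed to 156 to 196 CPM in control kidneys and 166, 216 and 223 CPM in DKD replicates 1 to 3, most of it from Xbp1, which many secretory cells make. Jchain, the joining chain of plasma cell antibodies, had 5.74, 13.9 and 7.34 CPM in control and 0.841, 53.8 and 56.1 CPM in DKD replicates 1 to 3. The B cell genes Cd79a and Ms4a1 had 0.135, 0.515 and 0.282 CPM in control and 0.118, 1.82 and 0.919 CPM in DKD replicates 1 to 3, and 0.168, 0.591 and 0.0564 CPM in control and 0.105, 1.86 and 1.24 CPM in DKD replicates 1 to 3. All 3 were above every control in DKD replicates 2 and 3, and none was above the highest control in DKD replicate 1. Of the 15 B and plasma cell genes listed, 7 were above every control in DKD replicates 2 and 3, beside 22% of all genes with any count. Not all B cell genes went this way: Cr2, Fcer2a and Blk were below every control in DKD replicate 3, at 0.907, 0.130 and 0.247 CPM. Neutrophil genes summed to 1.50 to 2.17 CPM in control kidneys and 1.54, 2.82 and 4.04 CPM in DKD replicates 1 to 3, with 5 of 10 at 0 in all controls. Adipocyte markers were found in the kidneys that were high for T cell genes: Adipoq, adiponectin, was at 0 in all controls and DKD replicate 1, and at 0.337 and 2.03 CPM in DKD replicates 2 and 3. Plin1, the coat protein of fat droplets, was likewise at 0, then at 0.740 and 2.76 CPM. The whole adipocyte list of 8 genes, 5 of them at 0 in all controls and most of whose level is that of Fabp4 and Pnpla2, summed to 114 to 134 CPM in control kidneys and 128, 142 and 150.0 CPM in DKD replicates 1 to 3.

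Among markers of lymph node stroma and high endothelium, those of high endothelium were at or near 0: Chst4 had no counts in any library, Glycam1 only 0.0825 CPM in DKD replicate 3 and Madcam1 only 0.0519 CPM in DKD replicate 2. The stromal chemokine genes of that list were higher in DKD replicate 2 than in every control: Ccl21a had 2.02, 1.88 and 2.48 CPM in control and 2.86, 5.74 and 2.23 CPM in DKD replicates 1 to 3, and Cxcl13 0.0673, 0.136 and 0.226 CPM in control and 0.105, 1.14 and 0.401 CPM in DKD replicates 1 to 3. Pdpn, podoplanin, which podocytes also make, had 3.74, 2.65 and 2.07 CPM in control and 3.76, 6.55 and 5.75 CPM in DKD replicates 1 to 3, above every control in all DKD kidneys. The list of 9 genes summed to 12.7 to 15.8 CPM in control kidneys and 20.6, 26.3 and 20.3 CPM in DKD replicates 1 to 3. The thymocyte genes Rag2 and Dntt had no counts in any library, and that list of 6 genes, most of whose level is that of Cd1d1, summed to 1.18 to 2.31 CPM in control kidneys and 5.87, 3.06 and 3.76 CPM in DKD replicates 1 to 3. Kidney markers were high throughout, and the 10 proximal tubule genes summed to 36097 to 44187 CPM in control kidneys and 36629.7, 22106 and 17506 CPM in DKD replicates 1 to 3. All 10 were fitted lower in DKD, and their sum was lowest in the DKD kidneys with the highest T cell level. The 6 podocyte genes summed to 165 to 208 CPM in control kidneys and 264, 270.2 and 348 CPM in DKD replicates 1 to 3. Each of the 6 was above the controls in every DKD kidney, beside 10.1% of all genes with any count.

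**Figure D5:**
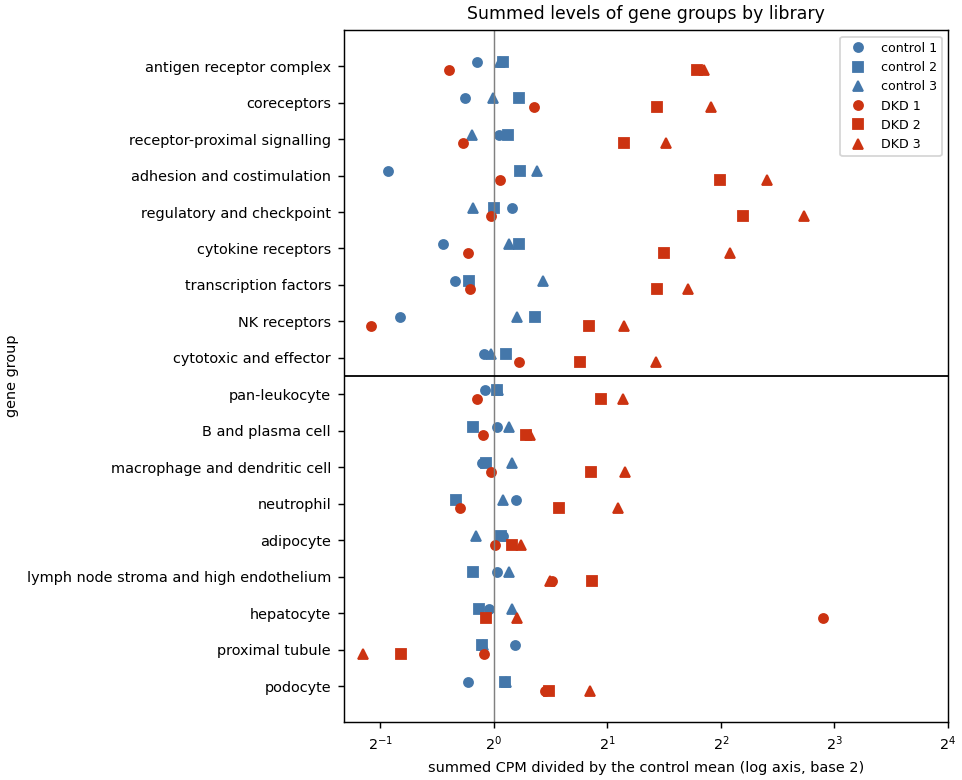
Summed CPM of each role group of the 41 genes (above the line) and of other cell type lists (below it), divided by the mean of the 3 control libraries, on a log axis of base 2; blue is control, red DKD, and circles, squares and triangles are replicates 1, 2 and 3. DKD replicates 2 and 3 lie to the right for all T and NK groups and for leukocytes and macrophages, DKD replicate 1 lies near the controls in those rows and far to the right for hepatocyte genes, and proximal tubule genes lie to the left in DKD replicates 2 and 3.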

How the data were processed

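The authors deposited raw read counts per Ensembl gene ID for 6 whole-kidney libraries (64816622 to 77417638 counts). The submitters' processing notes name edgeR, fastp, HISAT2 and StringTie, and the build GRCm39. Versions, order, roles, annotation and strand setting are not stated in the labels or the file. In each library more genes had a count of 4 (935 to 1141) than of 3 (468 to 548), so 1 fragment may give more than 1 count. Symbols came from a GRCm38 table, which matched 55141 IDs and all 41 genes.

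Counts were fitted in R 4.3.3 with edgeR 4.0.16 (robust quasi-likelihood test, TMM factors, default filter, Benjamini-Hochberg adjustment over all genes tested, threshold 0.05). Limma 3.58.1 and DESeq2 1.42.0 served as alternatives, and the fits were tested on simulated data. SEs come from the test statistic. CPM use TMM factors.

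The 41 genes and the lists were chosen with earlier results of these data known. Values are given for members that pass with all libraries or without 1 library and for defining markers, and from each other list for up to 3 genes with the smallest p and the most abundant or defining genes. Other genes were named after their values were seen. Results for a few listed genes are not reported here.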

Additional observations from a re-analysis of the deposited data

How the results depend on the processing

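All alternatives were planned. The count of genes called rested on the tool and on DKD replicate 1. Over all genes edgeR called 0, DESeq2 1749, limma-voom with sample quality weights 3401 and edgeR with no filter 4, and leaving out each library gave 0 to 3101, the 3101 without DKD replicate 1, 7 without control replicate 1 and 1 without DKD replicate 3. Of the T and NK genes edgeR called 0, DESeq2 6 (8 had no adjusted p), weighted limma-voom 11, and leaving out each library gave 0 to 21, with 21 without DKD replicate 1. RLE factors, library size alone, no filter and a filter of CPM 1 in 3 libraries, which left 9 of the 41 genes, gave 0. The median log2 difference of those tested was 1.43, ran from 0.97 to 1.81 without each library and was 1.61 when scaled by library size only, while the median over all genes tested then went from 0.02 to 0.17. The sign of each of the 39 genes tested with all libraries held under every alternative that could fit it, except Eomes, at -1.65 to 0.011 without each library. Ctla4 and Ifng were not followed in this way. Among the ratios, Cd3e to Ptprc was -0.025 with an added 0.5 CPM, and Foxp3 to Cd3e ran from -0.70 to 0.17 without each library.

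With a replicate block the count of T and NK genes called was 0, that over all genes was 0 and the median of the T and NK genes was 1.20, from 1.43 without it. The labels tie same-numbered libraries by the number alone and do not say whether they were processed together. Correlations of their deviations were small (0.034, 0.023 and 0.034), though each library correlated best with its own number. Whether they shared a batch was not tested. Counts under about 10 in some libraries limit what can be seen for Ncr1, Klrb1c, Ctla4, Pdcd1, Tigit and Ifng, among others. Klrk1, Klrd1 and Lag3 had at least 13 counts in every library.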

Other observations

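Transcripts of gamma-delta T cells and innate lymphoid cells were at or near 0 in most libraries. Of 13 listed genes 3 were tested, and Il17a, Il22 and Il23r had no counts in any library. The gamma-delta constant regions Trdc and Tcrg-C2 had 0, 0.136 and 0.0564 CPM in control and 0, 0.0908 and 0.412 CPM in DKD replicates 1 to 3 and 0, 0.136 and 0 CPM in control and 0, 0.350 and 0.542 CPM in DKD replicates 1 to 3. Il17f, an interleukin 17 family cytokine, had 0.101, 0.152 and 0 CPM in control and 1.34, 0.247 and 0.0943 CPM in DKD replicates 1 to 3. Unlike most of the 41 genes it was highest in DKD replicate 1, the library with the lowest Il7r, Cd247 and Lat, and its difference of 2.72 ± 1.31 on the log2 scale did not pass (adjusted p = 0.303, edgeR).

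Tnfrsf9 and Cd40lg, costimulatory molecules of activated T cells outside the 41 genes, chosen here after their values were seen, were like Ctla4 at 0 in all controls. Other such molecules, Tnfrsf4 and Tnfrsf18 among them, had counts in every control. Tnfrsf9, the 4-1BB receptor, had no counts in any control or in DKD replicate 1, and 0.480 and 0.636 CPM in DKD replicates 2 and 3. Cd40lg, the CD40 ligand of helper T cells, had no counts in the controls and 0.0525, 0.182 and 0.412 CPM in DKD replicates 1 to 3. Both could meet the filter through DKD kidneys alone, so no p is given.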
